A study of Homo sapiens with 18 samples.

Results

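The contactins, the L1 family and the NCAM proteins are adhesion molecules with immunoglobulin-like domains that are best known from neurons and glia. Transcripts of 10 of their genes are described here: the contactin genes CNTN1, CNTN3, CNTN4 and CNTN6, the L1 family genes L1CAM, CHL1, NRCAM and NFASC, and the NCAM genes NCAM1 and NCAM2. They are 10 of the 58721 identifiers in a table of read counts and 10 of the 21060 genes that passed a filter on low counts. CNTN6 and CHL1 passed that filter only through the libraries with SOX10 overexpression, in which they are high. The genes were selected on measured values in these libraries as well as by family, and the contrast behind the choice is not recorded. The fold changes and adjusted p-values below therefore describe the size of each change against the spread between libraries, and they are no independent support for any pattern across the 10 genes.

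The cells were A375, an established human melanoma line, purchased per the labels from ATCC and kept in DMEM with FBS. The 18 libraries form 6 groups of 3. In the control group the guide RNA targets GFP, and the genotype is labelled wild type. Knockout cells carried 1 of 2 guides against TADA2B, the gene of a subunit in the chromatin complex SAGA. Each of these 3 backgrounds was also profiled with overexpression of SOX10, a transcription factor of neural crest, melanocytes and myelinating glia. The labels name no time point, no clone and no details of the SOX10 construct, and they do not say whether the 3 libraries of a group came from separate cultures, so that the spread between them may be technical.

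Contactins are held in the membrane by a glycosylphosphatidylinositol (GPI) anchor and signal through partner proteins. L1 family members span the membrane, bind one another and other adhesion proteins, and attach to the actin and spectrin skeleton through ankyrins. NCAM proteins bind like molecules on neighbouring cells, and NCAM1 is the main carrier of polysialic acid. In the nervous system these families guide axons and build the contacts between axon and glia, and L1CAM is also made by several tumour types, melanoma among them.

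Each library held between 58.6 and 79.9 M counts, and a count of 3 corresponded to 0.0359 to 0.0493 CPM (counts per 1000000 counts of effective library size), a limit that covers counting error only. TADA2B had 2116 to 2201 counts per library in control cells, 1848 to 2103 with guide 1 and 1865 to 2513 with guide 2. The mean TADA2B change of the guides was −0.25 on the log2 scale, and −0.09 with scaling by library size; a guide need not lower the transcript, so this does not measure the protein. Control cells had 354 ± 12.2 CPM of SOX10 (SD, n = 3), guide 1 cells 83.6 ± 3.02 CPM and guide 2 cells 43.4 ± 3.16 CPM. With overexpression it stood at 452 ± 1.57, 291 ± 13.9 and 246 ± 5.44 CPM in the same order. Guide 2 replicate 2 stood apart from its group, with a chi-square per degree of freedom of 11.8 and 10.4 against the other two libraries, where other pairs within groups had 3.54 to 8.50. Markers of neurons (10 genes) summed to 52.4 to 53.8 CPM in control cells, 83.7 to 88.7 CPM in guide 1 cells and 78.6 to 79.2 CPM in guide 2 cells, and 4 of the 8 tested rose in the knockout while 0 fell. In the libraries with SOX10 the neuron sums were 56.6 to 60.0, 67.8 to 70.1 and 70.6 to 73.0 CPM in the same order. Most of the neuron sum in control cells was the neurofilament gene NEFL, at 40.1 CPM, while the neuronal genes STMN2 and ELAVL3 were below 0.04 CPM in every group mean. Markers of Schwann cells or oligodendrocytes (8 genes) summed to 510 to 522 CPM in control cells, 65.9 to 69.9 CPM in guide 1 cells, 35.9 to 37.9 CPM in guide 2 cells and 761 to 786 CPM in control cells with SOX10. With SOX10 they summed to 444 to 459 CPM in guide 1 and 386 to 399 CPM in guide 2. Of these markers MOG was listed at 0 counts in all guide 2 libraries without SOX10, and MBP stayed below 0.09 CPM in every group mean. Markers of the melanocytic lineage (8 genes) summed to 396 to 421 CPM in control cells, 170 to 178 CPM in guide 1 cells and 135 to 143 CPM in guide 2 cells. With SOX10 their sum was 727 to 732, 399 to 415 and 324 to 334 CPM in the same order. SOX10 is itself 1 of these 8 genes. The melanocytic sums thus include its 354, 83.6 and 43.4 CPM without and its 452, 291 and 246 CPM with overexpression. Their course follows SOX10 in part by construction. Of the 7 melanocytic markers tested, 3 rose and 4 fell in the knockout, SOX10 among those that fell. Markers of fibroblasts (8 genes) summed to 5.07 to 6.80 CPM in control cells, 34.7 to 38.7 CPM in guide 1 cells and 40.5 to 44.0 CPM in guide 2 cells, and 5 of the 7 tested rose in the knockout while 1 fell. Their sums with SOX10 were 12.8 to 14.0, 47.8 to 48.6 and 54.3 to 57.7 CPM. Epithelial markers (8 genes) stood at 194 to 195 CPM, 362 to 379 CPM and 379 to 408 CPM without SOX10 and at 166 to 168, 314 to 344 and 363 to 374 CPM with it. Of 7 epithelial markers tested, 6 rose in the knockout and 1 fell. Of 7 Schwann cell or oligodendrocyte markers tested, 0 rose and 5 fell. These counts are averaged over guides and stand against 28.6% of all genes tested that rose and 29.5% that fell. Leukocyte markers (8 genes) came to 8.38 to 9.33, 8.54 to 9.17 and 5.36 to 6.43 CPM without SOX10, and to 5.42 to 6.21 CPM, 18.4 to 19.5 CPM and at most 21.7 CPM with it. The part of these shifts in the results below was not tested.

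SOX proteins bind short A/T-rich sites, and the hexamers ACAAAG and ACAATG are 2 common forms of the site. The 250 bases before each start listed by RefSeq (GRCh38.p14) were searched for both hexamers on either strand. Starts were listed for 9 of the 10 genes, with 17 windows in all. Of these, 4 windows, or 23.5%, held a hexamer, against 21.2% of 35116 windows of the same length over all genes (13.7% for ACAAAG and 9.29% for ACAATG). The 4 windows belonged to CHL1 and NRCAM. For each of these 2 genes, the window that lies wholly outside annotated exons is printed because it holds a hexamer. Both lie at a start inside the gene's span, and the counts per gene do not separate starts. Capitals mark the hexamers, which read CATTGT or CTTTGT where the match lies on the opposite strand. The CHL1 window, chr3:319433-319682 on the plus strand, has 1 hexamer beginning 169 bases before the start. The NRCAM window, chr7:108243386-108243635 on the minus strand, has 3, beginning 246, 167 and 11 bases before it. A match is a description of the letters and not of binding.
CHL1: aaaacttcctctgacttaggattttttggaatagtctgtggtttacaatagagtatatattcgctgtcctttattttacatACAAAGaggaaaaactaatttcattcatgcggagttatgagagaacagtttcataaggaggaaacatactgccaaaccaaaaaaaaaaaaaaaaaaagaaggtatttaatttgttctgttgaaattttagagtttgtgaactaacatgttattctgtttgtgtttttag
NRCAM: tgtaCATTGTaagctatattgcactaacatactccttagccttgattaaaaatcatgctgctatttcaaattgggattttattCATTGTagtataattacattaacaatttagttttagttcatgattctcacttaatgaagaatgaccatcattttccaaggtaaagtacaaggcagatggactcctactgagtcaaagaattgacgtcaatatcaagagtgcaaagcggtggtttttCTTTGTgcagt

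In TADA2B knockout cells, averaged over guides, 5 of the 10 genes fell (NRCAM, CNTN3, CNTN1, CNTN4 and, with the default scaling, L1CAM) and 2 rose (NFASC and NCAM2). Over all genes tested, 29.5% fell and 28.6% rose in that comparison. This split depended on the scaling: by library size, 3545 genes fell and 9112 rose of 21060, and 3 rather than 5 of the 10 fell, since L1CAM and CNTN4 no longer passed. With guide 1, 4 genes fell against 26.4% of all genes and 2 rose against 26.2%. With guide 2, 4 fell against 28.1% and 2 rose against 27.9%. The absolute log2 change had a median of 0.90 over the 10 genes and 0.28 over all genes. CHL1, CNTN6 and NCAM1 did not pass in any of these 3 comparisons. In bulk RNA, a lower level per cell and fewer cells with the transcript cannot be told apart.

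Overexpression of SOX10 raised most of these transcripts. In control cells 6 of the 10 rose (CNTN6, CHL1, NCAM1, CNTN1, NCAM2 and NFASC) and 2 fell (L1CAM and NRCAM), where 17.3% and 17.2% of all genes did so. CNTN6 and CHL1 passed the filter only through libraries with SOX10. Their place among the rising genes, here and in the counts and medians below, thus followed from the filter. In knockout cells, averaged over guides, 8 rose, where 28.1% of all genes rose, and only L1CAM fell, where 28.1% of all genes fell. In guide 1 cells 8 rose and 1 fell, against 22.0% and 21.7% of all genes. In guide 2 cells 8 rose and 1 fell, against 24.6% and 24.0%. The median log2 change with SOX10 was 0.78 over the 10 genes in control cells and 1.45 in knockout cells, and −0.01 and 0.00 over all genes. Knockout cells with SOX10 were compared with control cells as well: 6 genes were higher and 3 lower (NRCAM, CNTN3 and L1CAM), against 30.0% and 27.9% of all genes. These comparisons share the control libraries or the knockout libraries, so their counts are not independent of one another.

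**Figure D1:**
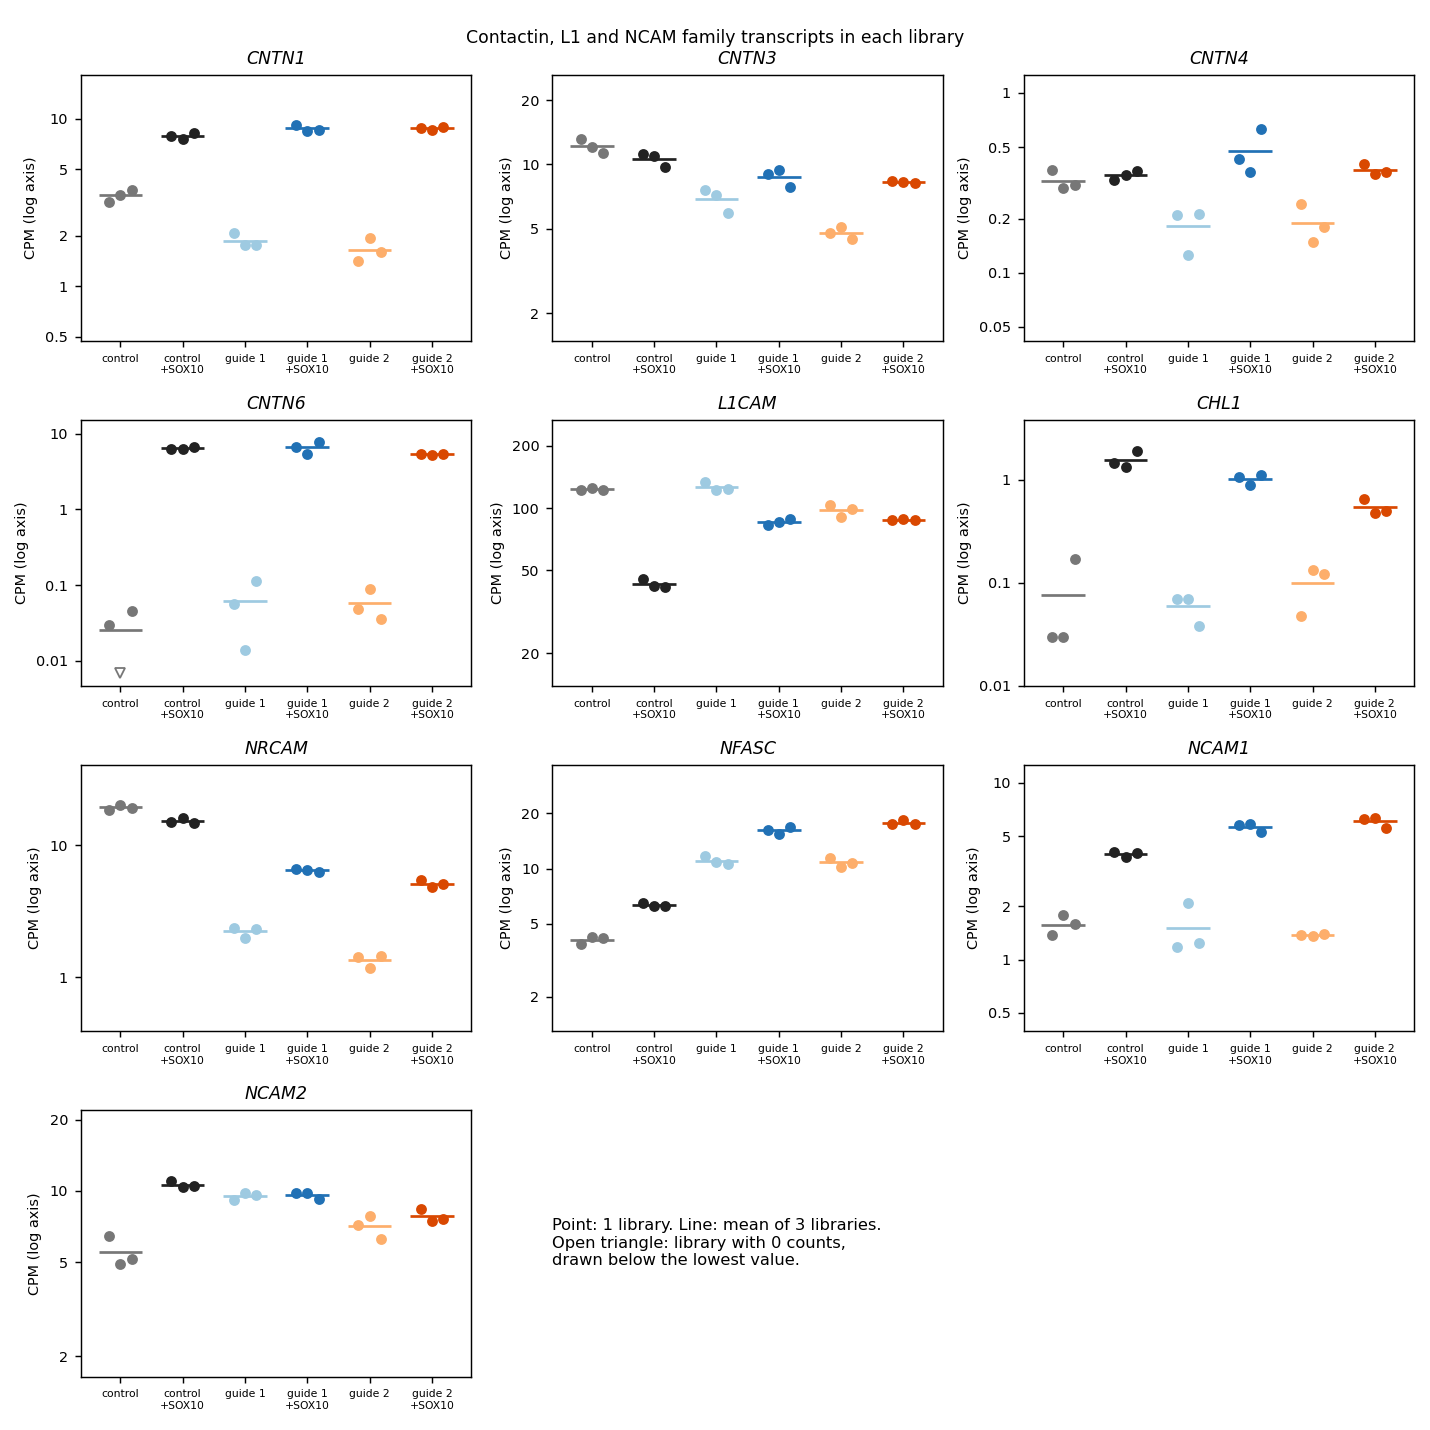
CPM (log axis) of the 10 genes in each of the 18 libraries, by group; points are libraries, lines are means of 3, and an open triangle is a library with 0 counts, drawn below the lowest value. CNTN6 and CHL1 were near 0 without SOX10 in all 3 backgrounds, and NRCAM was lower in all 6 knockout libraries without SOX10 (1.16 to 2.35 CPM) than in control libraries (18.7 to 20.4 CPM).

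CNTN6, which encodes a contactin of developing sensory and motor circuits (ENSG00000134115, hg38 chromosome 3, 1092576 to 1404217, plus strand), went from almost no counts to several CPM with SOX10. Control libraries had 2, 0 and 3 counts. Guide 1 libraries had 4, 1 and 9, and guide 2 libraries had 4, 6 and 3. None of these 9 libraries had more than 0.113 CPM, and the control library with 0 counts allows up to 0.0445 CPM. With SOX10 the counts were 463, 473 and 457 in control cells, 521, 411 and 566 in guide 1 cells and 437, 381 and 331 in guide 2 cells. No library with SOX10 came near one without it. Summed over libraries and scaled by effective depth, CNTN6 was 258-fold higher with SOX10 in control cells (95% exact interval 110 to 795, counting error only), 105-fold in guide 1 (62.3 to 192) and 95.9-fold in guide 2 (55.9 to 181). The fitted log2 changes of CNTN6 were 7.92 (SE 0.28) in control cells and 6.61 (SE 0.17) in knockout cells. Without control replicate 3, which had 3 counts, the former was 8.61, and without guide 1 replicate 3, which had 9, the change in guide 1 cells went from 6.68 to 7.50. CNTN6 levels with SOX10 overlapped between control and guide 1 cells (6.46 ± 0.224 and 6.57 ± 1.15 CPM). Guide 2 cells (5.32 ± 0.116 CPM) lay below control cells with SOX10 and overlapped guide 1. A difference of this SOX10 effect in knockout cells from that in control cells was not detectable at this depth (interaction −1.31, SE 0.68, adjusted p = 0.142). The knockout itself gave a CNTN6 log2 change of 1.18 (SE 0.67, adjusted p = 0.132). With guide 1 this became 1.71 without guide 1 replicate 2 (adjusted p = 0.0469).

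CNTN1, the contactin of the paranodal junction between axon and myelin (ENSG00000018236, chromosome 12, 40692442 to 41072418, plus strand), fell in the knockout and rose with SOX10 to a level above that of control cells. Control libraries were at 3.19, 3.53 and 3.78 CPM. Guide 1 libraries were at 2.07, 1.77 and 1.77 CPM, and guide 2 libraries at 1.41, 1.93 and 1.60 CPM. All 6 knockout libraries lay below all controls, and the guides overlapped. For CNTN1, guide 1 gave a log2 change of −0.90 (SE 0.11) and guide 2 one of −1.10 (SE 0.11). With SOX10, CNTN1 was at 7.93, 7.57 and 8.26 CPM in control cells, 9.18, 8.50 and 8.55 CPM in guide 1 cells and 8.85, 8.58 and 8.91 CPM in guide 2 cells. The 2 knockout lines with SOX10 overlapped each other and lay above control cells with SOX10. The rise was 1.18 (SE 0.096) in control cells and 2.32 (SE 0.072) in knockout cells, and the difference between these rises passed the test (1.15, SE 0.12, adjusted p = 3.24e-10).

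CNTN3 (ENSG00000113805, chromosome 3, 74262568 to 74521140, minus strand) was the contactin with the highest level in control cells. It was at 13.2, 12.0 and 11.3 CPM there. Guide 1 libraries had 7.58, 7.20 and 5.93 CPM, and guide 2 libraries 4.76, 5.07 and 4.45 CPM. The 3 groups did not overlap. CNTN3 fell by 0.82 (SE 0.086) on the log2 scale with guide 1 and by 1.36 (SE 0.089) with guide 2, and guide 2 lay below guide 1 (−0.54, adjusted p = 3.49e-05). With SOX10, CNTN3 stood at 11.2, 10.9 and 9.69 CPM in control cells, 8.97, 9.42 and 7.85 CPM in guide 1 cells and 8.40, 8.23 and 8.17 CPM in guide 2 cells. SOX10 thus raised CNTN3 in guide 1 (0.34, SE 0.087) and guide 2 (0.80, SE 0.091), but both lines stayed below control cells (mean of guides −0.52, adjusted p = 5.32e-08). In control cells the CNTN3 change with SOX10 was −0.20 (SE 0.083, adjusted p = 0.0579). It passed with the replicate block (adjusted p = 0.0233), when the fit held only the compared groups (0.0279), and without control replicate 3 (0.0341), guide 1 replicate 3 (0.0433), guide 1 with SOX10 replicate 3 (0.0499) or guide 2 replicate 2 (0.0455). The SOX10 effect on CNTN3 differed between knockout and control cells by 0.77 (SE 0.10, adjusted p = 9.66e-08).

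CNTN4 (ENSG00000144619, chromosome 3, 2098813 to 3057956, plus strand), an axon-associated contactin, was scarce in every group. It had 65 counts over the 3 control libraries, 41 with guide 1 and 45 with guide 2, or means of 0.325 ± 0.0412, 0.182 ± 0.0498 and 0.189 ± 0.0466 CPM. The lowest control library (0.296 CPM) lay above the highest knockout library (0.239 CPM). With SOX10 the sums were 75, 108 and 81 counts, and the 3 groups overlapped. Its fall in the knockout, −0.80 on the log2 scale (SE 0.30, adjusted p = 0.0215), rested on few counts. It did not pass with scaling by library size (0.0621), without the filter on low counts (0.0651), without control replicate 1 (0.0968) or without guide 1 replicate 2 (0.0505). Per guide, the CNTN4 change was −0.83 with guide 1 (adjusted p = 0.0475, and 0.0503 to 0.186 in the 13 alternatives that ended this call) and −0.77 with guide 2 (adjusted p = 0.0607, and 0.0422 without guide 2 replicate 1). SOX10 raised CNTN4 in knockout cells by 1.17 (SE 0.24, adjusted p = 5.76e-05). In control cells the change was 0.09 (SE 0.33, adjusted p = 0.867). The rise in guide 2 cells (0.96, adjusted p = 0.0174) did not pass without guide 2 replicate 2 (0.0693), without guide 2 replicate 3 (0.0509), without guide 2 with SOX10 replicate 1 (0.0537) or without the filter (0.0508). The interaction of CNTN4 (1.07, adjusted p = 0.0385) was likewise lost in 11 alternatives, with adjusted p-values of 0.0506 to 0.109, the highest without the filter (0.109) and without control replicate 1 (0.105).

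The other contactins and the contactin-associated proteins, a list of 8 genes, gave 5 that passed the filter. In the knockout 3 of these rose and 2 fell, and with SOX10 in knockout cells 3 rose and 1 fell. Over all genes tested, 28.6% rose and 29.5% fell in the former comparison, and 28.1% rose and 28.1% fell in the latter. CNTN5, a contactin of auditory and visual pathways, rose in the knockout by 1.61 (SE 0.20) on the log2 scale, from 0.365 ± 0.110 CPM to 1.13 ± 0.138 CPM in guide 1 cells and 1.10 ± 0.139 CPM in guide 2 cells, a direction opposite to that of CNTN1, CNTN3 and CNTN4. With SOX10, CNTN5 was higher still, at 1.85 ± 0.156 and 1.79 ± 0.122 CPM. CNTNAP1, which encodes the CNTN1 partner at the paranode, was at 22.6 ± 0.811 CPM in control cells and rose by 0.30 (SE 0.052). CNTNAP2 rose by 1.92 (SE 0.55) from 0.0353 CPM, that is from 1, 2 and 4 counts per control library, and by 2.54 without control replicate 3. CNTNAP3 moved in the directions of CNTN3 and CNTN1, with −1.17 (SE 0.062) in the knockout and 1.23 (SE 0.052) with SOX10 in knockout cells. CNTNAP3B changed by −0.60 (SE 0.061) and 0.29 (SE 0.051) in the same 2 comparisons, and reads of CNTNAP3 and CNTNAP3B may be split between these near-identical copies. CNTN2, CNTNAP4 and CNTNAP5 had 21, 8 and 22 counts over all 18 libraries and were not tested.

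**Figure D2:**
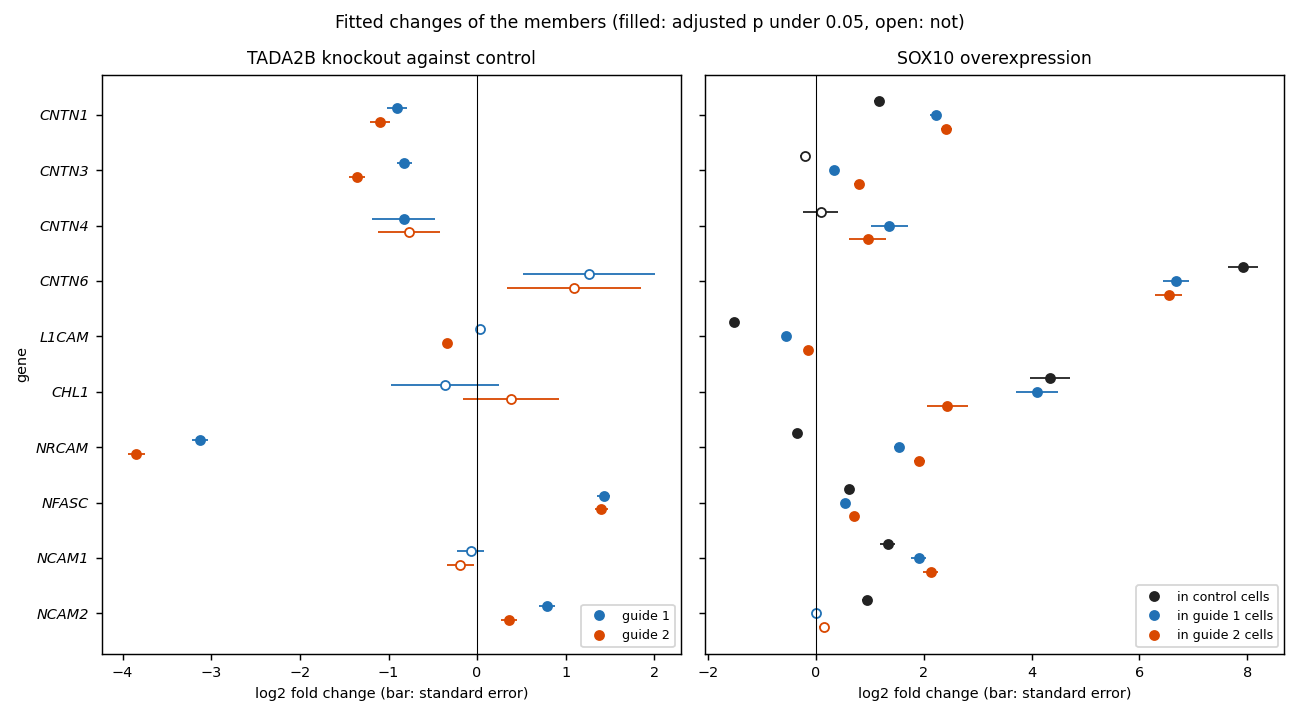
Fitted log2 fold changes of the 10 genes with standard errors: TADA2B knockout against control for each guide (left) and SOX10 overexpression in each background (right); filled points have an adjusted p under 0.05. NRCAM has the lowest points on the left (−3.13 and −3.84), CNTN6 and CHL1 the highest on the right; L1CAM with guide 1 sits at 0.03 here and at 0.18 with library-size scaling.

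L1CAM, the founding member of its family and a promoter of cell migration and neurite growth (ENSG00000198910, chromosome X, 153861514 to 153886174, minus strand), had the highest level of the 10 genes and was the only one that fell with SOX10 in all 3 backgrounds. Control libraries were at 123, 126 and 123 CPM, guide 1 libraries at 133, 122 and 124 CPM and guide 2 libraries at 103, 90.8 and 98.7 CPM. Guide 1 overlapped control cells, and guide 2 lay below both. Averaged over guides the L1CAM change was −0.15 (SE 0.033, adjusted p = 0.000106), but scaling by library size moved it to 0.00 (adjusted p = 0.981), and with guide 1 from 0.03 to 0.18 (adjusted p = 0.000141). With guide 2 the L1CAM change was −0.34 (SE 0.038) with the default and −0.18 with library-size scaling. With SOX10, L1CAM was at 45.7, 42.3 and 41.5 CPM in control cells, 83.3, 85.6 and 88.2 CPM in guide 1 cells and 87.6, 88.6 and 87.8 CPM in guide 2 cells. The fall was −1.52 (SE 0.041) in control cells, −0.56 (SE 0.039) in guide 1 and −0.15 (SE 0.039, adjusted p = 0.00142) in guide 2. The SOX10 effect on L1CAM differed between knockout and control cells by 1.16 (SE 0.049, adjusted p = 2.38e-21).

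NRCAM, which encodes a protein of the node of Ranvier and of axon growth (ENSG00000091129, chromosome 7, 108147623 to 108456717, minus strand), had the largest fall of the 10 genes in the knockout and was only partly raised by SOX10. Control libraries had 18.7, 20.4 and 19.3 CPM. Guide 1 libraries had 2.35, 1.99 and 2.33 CPM, and guide 2 libraries 1.41, 1.16 and 1.45 CPM. The 3 groups did not overlap. NRCAM changed by −3.13 (SE 0.087) on the log2 scale in guide 1 cells and by −3.84 (SE 0.093) in guide 2 cells, and the guides differed by −0.72 (SE 0.11, adjusted p = 7.38e-06). With SOX10, NRCAM was at 15.1, 16.2 and 14.7 CPM in control cells, 6.61, 6.46 and 6.30 CPM in guide 1 cells and 5.46, 4.81 and 5.09 CPM in guide 2 cells. All 6 group ranges of NRCAM were separate from one another. SOX10 lowered NRCAM slightly in control cells (−0.35, SE 0.071, adjusted p = 0.000135) and raised it in knockout cells (1.73, SE 0.068), an interaction of 2.07 (SE 0.099, adjusted p = 1.74e-20). Knockout cells with SOX10 remained below control cells by 1.76 on the log2 scale (−1.76, SE 0.063). The 2 genes whose windows hold a hexamer, NRCAM and CHL1, moved in opposite directions with SOX10 in control cells, and both rose with it in knockout cells (1.73 and 3.27). CNTN6, which had the largest rise, held no hexamer in its window. That window lies wholly inside annotated exons, with 0 bases outside them. The share of windows with a hexamer was near that of all genes (23.5% and 21.2%). A link between hexamers and the response to SOX10 was not tested.

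NFASC, which encodes the neurofascins of nodes and paranodes (ENSG00000163531, chromosome 1, 204828651 to 205022822, plus strand), rose with the knockout and with SOX10. Control libraries had 3.87, 4.22 and 4.20 CPM, guide 1 libraries 11.7, 10.9 and 10.6 CPM, and guide 2 libraries 11.4, 10.2 and 10.8 CPM. With SOX10 it was at 6.47, 6.24 and 6.22 CPM in control cells, 16.3, 15.4 and 16.9 CPM in guide 1 and 17.5, 18.4 and 17.4 CPM in guide 2. The guides without SOX10 overlapped, and all other groups of NFASC were separate. NFASC rose by 1.42 (SE 0.067) in the knockout, 0.62 (SE 0.078) with SOX10 in control cells and 0.63 (SE 0.045) with SOX10 in knockout cells. The last 2 values differed by 0.01 (SE 0.091, adjusted p = 0.952), a sign that turned under some alternatives. Knockout cells with SOX10 were 2.05 (SE 0.066) above control cells on the log2 scale.

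CHL1, the close homologue of L1 (ENSG00000134121, chromosome 3, 196596 to 409417, plus strand), resembled CNTN6 in being near 0 without SOX10. Its counts were 2, 2 and 11 in control libraries, 5, 5 and 3 with guide 1 and 4, 9 and 10 with guide 2. With SOX10 they were 106, 99 and 130 in control cells, 82, 68 and 83 in guide 1 cells and 53, 35 and 30 in guide 2 cells. Every library with SOX10 lay above every library without it, and the 3 groups with SOX10 did not overlap in CPM (1.56 ± 0.308, 1.02 ± 0.122 and 0.539 ± 0.0928). Summed counts of CHL1 were 20.7-fold higher with SOX10 in control cells (95% exact interval 12.3 to 37.3), 17.6-fold in guide 1 (10.1 to 33.5) and 5.57-fold in guide 2 (3.54 to 9.13). These intervals cover counting error only, and the 20.7-fold value includes the control library with 11 counts. The fitted rise was 4.34 (SE 0.37) in control cells and 3.27 (SE 0.27) in knockout cells. Their difference did not pass (−1.07, SE 0.55, adjusted p = 0.137). The rise in control cells and this difference were both made smaller in size by the control library with 11 counts. Without that library, control replicate 3, they were 5.63 and −2.37 (adjusted p = 0.00544 for the difference). The knockout change of CHL1 was 0.01 (SE 0.59), and with guide 2 it went from 0.38 (SE 0.54) to 1.67 (adjusted p = 0.0391) without that library.

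NCAM1, also known as CD56 and the main carrier of polysialic acid (ENSG00000149294, chromosome 11, 112961247 to 113278436, plus strand), rose with SOX10 in all 3 backgrounds. Without SOX10, control libraries had 1.37, 1.78 and 1.58 CPM, guide 1 libraries 1.18, 2.09 and 1.24 CPM, and guide 2 libraries 1.39, 1.36 and 1.41 CPM, and these groups overlapped. With SOX10 it was at 4.08, 3.83 and 4.03 CPM in control cells, 5.77, 5.82 and 5.31 CPM in guide 1 and 6.28, 6.33 and 5.55 CPM in guide 2. The knockout lines with SOX10 lay above control cells with SOX10 and overlapped each other. The NCAM1 change in the knockout was −0.13 (SE 0.14, adjusted p = 0.428), and 0.03 with library-size scaling. It passed without guide 1 replicate 2 (−0.28, adjusted p = 0.0407), as it did for guide 1 alone (−0.38, adjusted p = 0.0336). SOX10 raised NCAM1 by 1.33 (SE 0.14) in control cells and 2.02 (SE 0.095) in knockout cells, a difference of 0.69 (SE 0.17, adjusted p = 0.00158).

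NCAM2, the second member of its family, known from olfactory axons (ENSG00000154654, chromosome 21, 20998315 to 21543329, plus strand), was the only one of the 10 genes with a negative interaction that passed, that is, a smaller rise with SOX10 in knockout than in control cells. Its control libraries had 6.47, 4.92 and 5.16 CPM, guide 1 libraries 9.12, 9.83 and 9.61 CPM, and guide 2 libraries 7.17, 7.80 and 6.26 CPM. Guide 1 was separate from control cells, and guide 2 overlapped them. NCAM2 rose by 0.79 (SE 0.088) with guide 1 and 0.36 (SE 0.090, adjusted p = 0.000796) with guide 2, and the guides differed by −0.43 (SE 0.085, adjusted p = 0.000301). With SOX10 it was at 11.0, 10.4 and 10.5 CPM in control cells, 9.81, 9.76 and 9.23 CPM in guide 1 and 8.35, 7.49 and 7.62 CPM in guide 2. The rise was 0.94 (SE 0.088) in control cells and 0.08 (SE 0.060, adjusted p = 0.26) in knockout cells, with an interaction of −0.86 (SE 0.11, adjusted p = 1.26e-08). Without guide 2 replicate 2 the change with SOX10 in guide 2 cells passed (0.23, adjusted p = 0.0382).

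The interaction terms given above numbered 6 higher and 1 lower among the 10 genes, where 18.1% of all genes had a higher and 15.1% a lower SOX10 effect in knockout cells. A higher interaction stands for a larger rise in CNTN1 and NCAM1, a smaller fall in L1CAM and a rise in place of a fall in NRCAM. In CNTN3 and CNTN4 it stands for a rise in knockout cells only. Their changes in control cells did not pass (−0.20 and 0.09). The SOX10 transcript itself rose by 0.35 (SE 0.036) in control cells and by 2.15 (SE 0.028) in knockout cells with overexpression. Its own interaction was 1.80 (SE 0.046, adjusted p = 7.34e-25). The part of this unlike rise of SOX10 in the interactions of the 10 genes was not tested. Between the guides, 4 of the 10 genes were lower with guide 2 (CNTN3, L1CAM, NRCAM and NCAM2) and 0 were higher, against 6.09% and 2.65% of all genes. SOX10 itself was lower with guide 2 than with guide 1 by 0.94 on the log2 scale (−0.94, SE 0.040). The part of that difference in these 4 genes was not tested.

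On a scale comparable between genes, CPM per kilobase of annotated exon, L1CAM stood far above the rest in control cells, at 17.0 ± 0.238. CNTN3 and NRCAM followed at 2.38 ± 0.186 and 2.37 ± 0.106 and did not differ beyond their spread. Then came NCAM2 at 0.658, CNTN1 at 0.467, NFASC at 0.193 and NCAM1 at 0.124, all per kilobase. CNTN4, CHL1 and CNTN6 were lowest, at 0.0357, 0.00642 and 0.00453 per kilobase. With SOX10 in control cells the level of CNTN6 per kilobase was 1.16 ± 0.0401, above that of CNTN1 at 1.06 ± 0.0462 and close to that of NCAM2 at 1.27 ± 0.0383. NRCAM moved from the third place in control cells to a level of 0.271 with guide 1 and 0.164 with guide 2, below NFASC at 0.519 and 0.508 per kilobase. The exon lengths sum all annotated transcripts, so genes with many isoforms, NFASC above all with 21271 bases, are understated.

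**Figure D3:**
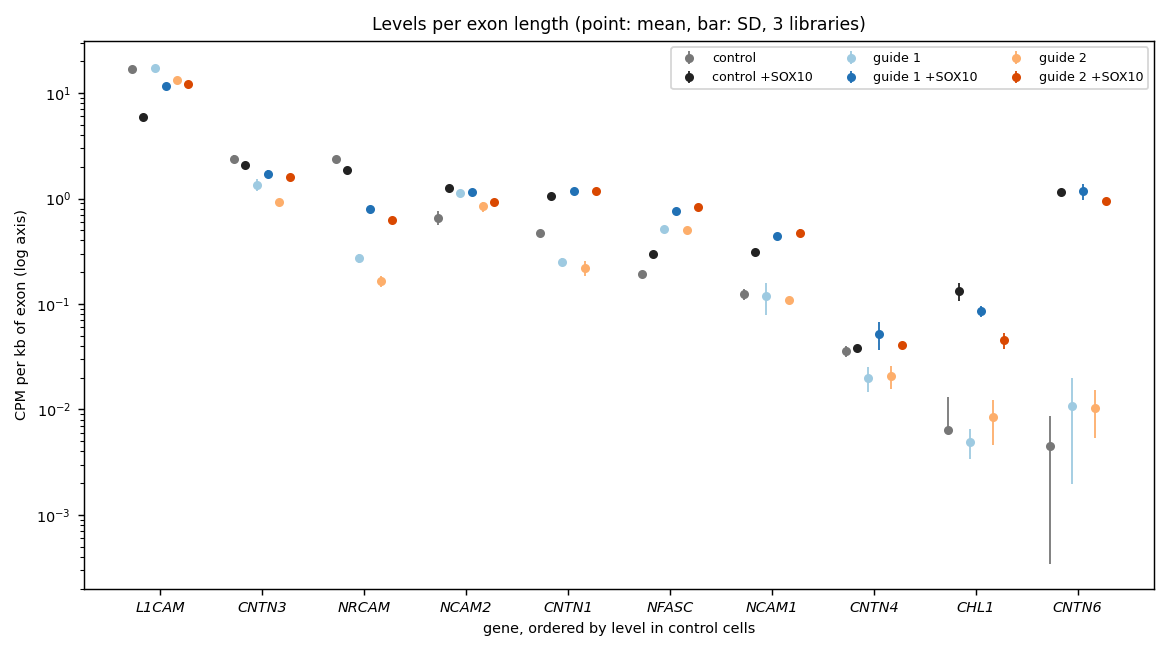
Level of each gene per kilobase of annotated exon (log axis) in the 6 groups, genes ordered by their level in control cells; points are means and bars SD over 3 libraries, with no lower bar where the SD exceeds the mean. CNTN6 moves from the lowest place in control cells (0.00453) to 1.16 in control cells with SOX10.

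Partners and processing enzymes of these proteins are described from 4 further lists, each read against the shares of all genes given above. Scaling by library size raised the median log2 change of all genes by 0.155 in the knockout. The counts and medians of these lists, and the counts of the contactin relatives, were not recomputed with that scaling. Of 22 tested extracellular and membrane partners, 15 fell and 5 rose in the knockout (median log2 change −0.21, and −0.01 over all genes), and 11 rose and 8 fell with SOX10 in knockout cells. PTPRZ1, a receptor phosphatase that binds contactins, NRCAM and L1 family proteins, went from 7.52 ± 0.424 CPM to 0.329 ± 0.0822 CPM in guide 1 cells and 0.175 ± 0.00663 CPM in guide 2 cells, and with SOX10 to 4.90 ± 0.811 and 1.76 ± 0.0427 CPM. Its log2 change in the knockout was −4.96 (SE 0.12). GDNF, a growth factor that can bind NCAM1, fell by 3.94 (SE 0.10), and TNC, the matrix protein tenascin-C and a contactin ligand, fell by 1.62 (SE 0.023). EGFR, a receptor that L1 proteins can engage, moved the other way, with 1.34 (SE 0.037) in the knockout and −1.56 with SOX10 in both control and knockout cells.

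Of 15 tested cytoskeletal adaptors and effectors, 8 fell and 3 rose in the knockout (median −0.10). Only ANK1, an ankyrin, changed at least 2-fold among those that passed, from 0.345 ± 0.0736 CPM to 1.01 ± 0.199 and 1.00 ± 0.124 CPM. With SOX10 in knockout cells 10 of the 15 rose and 3 fell. Of 16 tested enzymes of shedding, glycan addition and GPI anchoring, 9 fell and 3 rose in the knockout (median −0.18), and 10 rose and 4 fell with SOX10 in knockout cells. B3GAT1, which makes the HNK-1 carbohydrate carried by NCAM and L1 proteins, had 13.1 ± 0.285 CPM in control cells, 2.19 ± 0.0840 CPM in guide 1 cells and 1.96 ± 0.183 CPM in guide 2 cells. With SOX10, B3GAT1 stood at 20.8 ± 0.955 and 18.1 ± 0.482 CPM in the knockout lines, a rise of 3.23 (SE 0.052). BACE2, a membrane protease related to the sheddase of L1 and CHL1, fell by 1.05 (SE 0.024).

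Of 21 tested other neural and melanoma adhesion genes of the immunoglobulin superfamily, 11 fell and 6 rose in the knockout (median −0.26), and 14 rose and 4 fell with SOX10 in knockout cells (median 0.68). CADM4 and CADM1, which encode the synaptic and axon-glia adhesion proteins SynCAM, fell by 2.07 (SE 0.032) and 1.57 (SE 0.025), and with SOX10 they rose by 1.91 (SE 0.028) and 2.66 (SE 0.022) in knockout cells. CADM1 with SOX10 was at 246 ± 4.93 and 218 ± 2.97 CPM in the knockout lines, against 109 ± 3.10 CPM in control cells. NTM, a GPI-anchored neural adhesion gene, fell by 2.53 (SE 0.048), and NECTIN3 by 1.19 (SE 0.034). In control cells, SOX10 changed 3, 10, 5, 7 and 10 genes upward and 0, 8, 6, 1 and 4 downward in the 5 lists, from the contactin relatives to the adhesion genes, of 5, 22, 15, 16 and 21 tested. Over all genes, 17.3% rose and 17.2% fell in that comparison.

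**Figure D4:**
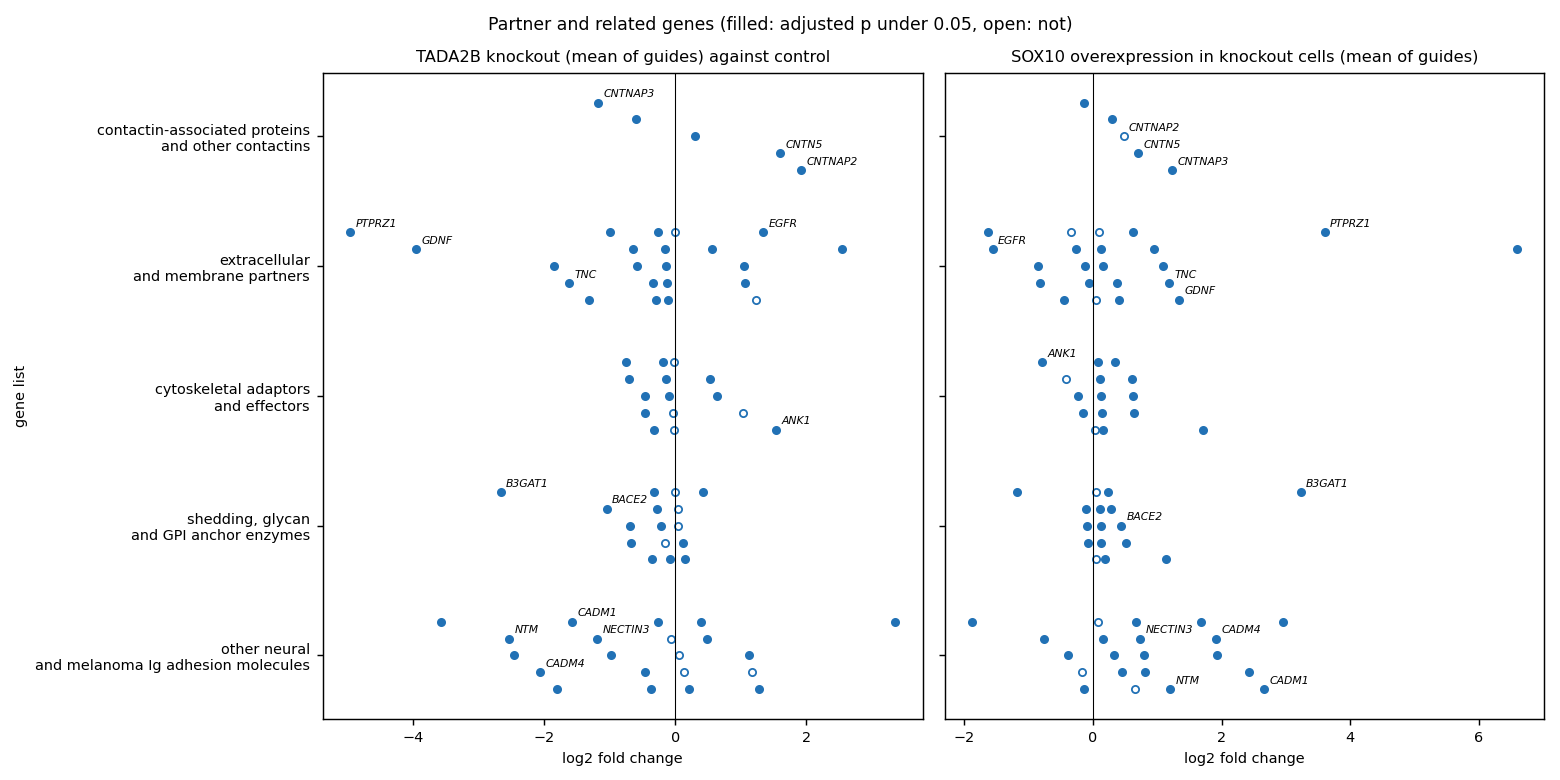
Log2 fold changes of the tested genes in 5 lists of relatives and partners, in TADA2B knockout against control (left) and with SOX10 in knockout cells (right), each a mean over guides; each point is a gene and filled points have an adjusted p under 0.05. PTPRZ1 (−4.96 on the left, 3.60 on the right) and B3GAT1 (−2.66 and 3.23) lie on opposite sides in the 2 panels.

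CHL1, CNTN6 and CNTN4 lie next to one another near the end of the short arm of chromosome 3, on the plus strand, with starts 896 and 1902 kilobases apart from that of CHL1. Within 1 Mb of these 3 genes, 8 protein-coding genes were annotated and 6 tested, the 3 contactin and L1 genes included. The other three tested genes were TRNT1, CRBN and SUMF1, on the CNTN4 side. Their log2 changes with SOX10 were 0.07, 0.08 and 0.17 in control cells and −0.03, 0.00 and −0.15 in knockout cells, and only those of SUMF1 passed (adjusted p = 0.0343 and 0.00535). CHL1 and CNTN6 changed by 4.34 and 7.92 in control cells, and CNTN4, between CNTN6 and TRNT1, by 0.09. In knockout cells these 3 changed by 3.27, 6.61 and 1.17 (adjusted p = 5.76e-05 for CNTN4).

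Across the 18 libraries, the courses of CNTN6 and NCAM1 (Pearson r = 0.95 of log2 CPM), CNTN3 and NRCAM (0.94) and CNTN1 and CNTN6 (0.94) were the most alike among the 10 genes, and those of L1CAM and CHL1 the most opposite (−0.88). The points share the 6 groups and their normalization, and the values are descriptions. Among 18586 genes compared, those most like CNTN1 included IGSF11 and CALU (r = 0.993 and 0.991). Those most like CNTN6 were PDGFD, MTUS1 and KCNJ10 (0.995, 0.994 and 0.993), and those most like CHL1 were FRG2DP, BCHE and TRIM48 (0.984, 0.983 and 0.983). CNTN3 was closest to IGSF3, HSD3BP5 and EPS8 (0.975, 0.967 and 0.965), and NRCAM to MOK, MAP4K4 and FMNL2 (0.994, 0.994 and 0.993). Genes close to L1CAM included PLEKHG5 and KLF5 (0.984 and 0.954), and NFASC was closest to REEP2, CTSS and IL31RA (0.992, 0.991 and 0.991). NCAM1 was closest to MUC7, RGS8 and ARMH4 (0.985, 0.984 and 0.984). NCAM2 had no gene as close as these, with AIFM1, FOXF1 and ITFG1 at 0.915, 0.909 and 0.901.

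Annotated antisense genes bear on these counts only where the counting ignored strand, which is not given in the sources used here. CHL1-AS1 and CHL1-AS2 had at most 2 counts in any library, CNTN4-AS1, CNTN4-AS2 and NCAM1-AS1 at most 1, and L1CAM-AS1 at most 7.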

How the data were processed

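RNA of A375 cells was sequenced in 18 libraries, 3 in each of 6 groups taken from the sample titles. Per the labels' protocols, library preparation used the KAPA Stranded mRNA-Seq kit. The deposited file holds raw counts of reads per gene, not normalized by the authors. Per the submitters' processing notes, HISAT2, HTSeq and hg38 were used; their versions, the annotation and strand setting were not found in the labels or notes. Of 58721 Ensembl identifiers, 58676 matched GENCODE 29, which gave coordinates and exon lengths, 58207 had a symbol in the name table, and 45 were pseudoautosomal Y identifiers.

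Counts were analysed with edgeR 4.0.16 in R 4.3.3: filterByExpr by group (21060 genes), TMM factors, 1 robust quasi-likelihood fit of 6 group means (12 residual degrees of freedom), two-sided F tests and Benjamini-Hochberg adjustment over all tested genes, with an adjusted p under 0.05 as the threshold for a change. Standard errors (SE) are of fitted log2 changes. CPM use effective library sizes, and a change averaged over guides weights both guides equally. Depth was 58.6 to 79.9 M counts per library. Within groups, libraries differed by more than sampling noise (chi-square per degree of freedom 3.54 to 11.8), so none was counted as a repeat of another. The script was tested on simulated counts. The alternatives were RLE and library-size scaling, no filter, a mean CPM of at least 1, DESeq2 1.42.0, only the compared groups, the replicate block, and leaving out each library. Members and lists were chosen with earlier results of these data known. Named are all 10 members, their relatives, up to 4 genes per list with the lowest p among those changed at least 2-fold in the knockout, antisense genes, neighbours within 1 Mb and the 3 genes with the most similar course; some of the last are not reported here.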

Additional observations from a re-analysis of the deposited data

Results flagged for a closer look

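The effect of SOX10 overexpression differed between TADA2B knockout cells and control cells, by the interaction term of the fit, for 7 of the 10 genes. The differences (knockout minus control, log2 scale) were 1.15 for CNTN1, 0.77 for CNTN3, 1.07 for CNTN4, 1.16 for L1CAM, 2.07 for NRCAM, 0.69 for NCAM1 and −0.86 for NCAM2. That of CNTN4 had the least support (adjusted p = 0.0385), and it did not pass in 11 alternatives (adjusted p = 0.0506 to 0.109). Over all genes tested, the interaction was positive and passed for 18.1% and negative and passed for 15.1%. The SOX10 transcript itself rose by 0.35 in control cells and 2.15 in knockout cells, an interaction of 1.80 (adjusted p = 7.34e-25). These log2 rises began from unlike levels, lower in the knockout, and the SOX10 level reached was highest in control cells. The construct is not described in the labels, so how much SOX10 it added to each background is not known. The part of the unlike log2 rise of SOX10 in the 7 differences was not tested.

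The 2 guides differed for 4 of the 10 genes, with guide 2 lower in each, against 6.09% of all genes lower and 2.65% higher. The log2 differences were −0.54 for CNTN3, −0.37 for L1CAM, −0.72 for NRCAM and −0.43 for NCAM2. All comparisons come from libraries on which the genes were in part selected.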

How the results depend on the processing

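The totals of genes and of members past the threshold, both directions together, stayed within 1.5 times the reported count in every alternative run. By direction they moved more: with library-size scaling the genes higher and lower went from 6025 and 6205 to 9112 and 3545 in the knockout, from 5518 and 5568 to 8382 and 3103 with guide 1 and from 5867 and 5908 to 8874 and 3478 with guide 2. The genes lower in knockout cells with SOX10 than in control cells went from 5866 to 3295, and the members lower in the knockout from 5 to 3. Without guide 1 replicate 1 the genes higher with guide 2 than with guide 1 went from 559 to 336, and without control replicate 3 the members with a negative interaction from 1 to 2. CNTN6 and CHL1 in knockout cells with SOX10 against control went from 7.79 and 3.28 to 8.48 and 4.57 without that control library, and CNTNAP2 with SOX10 in control cells from 2.54 to 3.16. Of 2460 recomputed log2 changes of the 10 genes, 2382 kept their direction and side of the threshold, 32 lost the call, 14 gained it and 32 changed sign. Many of these runs left out a library outside the comparison, which hardly moves the estimate. Runs that did not test a gene are not counted. The share kept is thus high in part by design. Scaling by library size raised the median log2 change of all genes by 0.155 in the knockout (0.147 with guide 1, 0.162 with guide 2) and by 0.147 in knockout cells with SOX10 against control. It moved the share of higher calls from 49.3% to 72.0%, 49.8% to 73.0%, 49.8% to 71.8% and 51.9% to 73.5% in these comparisons, and from 30.4% to 42.2% between guides. Under this scaling the sign changed for L1CAM (0.0011) and NCAM1 (0.025) in the knockout, NCAM1 with guide 1 (0.075) and NCAM2 with SOX10 in guide 1 (−0.0015). The NFASC interaction became −0.0016 with RLE, −0.0023 with library-size scaling, −0.0062 without a filter and −0.0019 with DESeq2. Leaving out each library gave ranges that crossed 0: in the knockout −0.38 to 1.30 for CHL1; with guide 1 −0.012 to 0.055 for L1CAM, −0.75 to 0.93 for CHL1 and −0.38 to 0.067 for NCAM1; with guide 2 −0.0036 to 1.67 for CHL1. With SOX10 they were −0.011 to 0.047 for NCAM2 in guide 1 cells, and −0.13 to 0.45 for ANK1 and −0.070 to 0.0013 for NECTIN3 in control cells. They were −0.0068 to 0.049 for the NFASC interaction, and between guides −0.14 to 0.20 for CNTN4, −0.61 to 0.65 for CNTN6, −0.070 to 0.012 for NFASC and −0.26 to 0.19 for NCAM1. CNTN6 and CHL1 without SOX10 had at most 11 counts per library, which limits every value set against those groups.

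Deviations from the group means were partly shared between libraries of the same replicate number, though the correlations were low. Same-numbered libraries of different groups had deviations correlated at −0.10 to 0.26 (median 0.05), with 7 of 45 pairs over 0.1. Pairs with other numbers had −0.32 to 0.27 (median −0.02), with 4 of 90 over 0.1. On average, 14 of 18 libraries correlated best with their own number, of 3 numbers possible. For CNTN3, replicate 3 was the lowest library in every group. Its CPM were 11.3 and 9.69 in control cells without and with SOX10, 5.93 and 7.85 with guide 1, and 4.45 and 8.17 with guide 2. A pairing by number thus remains possible, and the main fit did not include it. With the replicate block the genes changed numbered 12322 in the knockout and 7439 with SOX10 in control cells, and among the 10 genes the only call that moved was that of CNTN3 with SOX10 in control cells (−0.20, adjusted p = 0.0233).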
